A study of Mus musculus with 12 samples.

Results

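Pancreatic islets made transgenic for human islet amyloid polypeptide (hIAPP) were compared directly with islets of mice lacking the protease BACE2 (BACE2-KO), on 3 arrays of each group out of 12 in the study. Every gene with a probe set of a single gene symbol entered, 17097 in all, and the 12825 whose mean level over the 12 arrays was at or above the 25th percentile (log2 level 3.43) were tested. The other arrays were 3 of wild type (WT) islets and 3 of islets with both changes (hIAPP/BACE2-KO). All mice were 12 weeks old and ate standard chow, and the labels give every group, WT and hIAPP included, the strain name B6;129P2-Bace2tm1Bdes/J, which joins B6 and 129P2 in a mixed background. The hIAPP mice are labelled as transgenic with BACE2 present, and the BACE2-KO mice as lacking BACE2 with no transgene, so the 2 groups differ by both changes at once. The promoter of the transgene is not given in the sources used here, nor whether an array held the islets of several mice, so each p-value reflects how far these arrays spread.

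Islet amyloid polypeptide is stored and released with insulin by beta cells, and the human form can aggregate into islet amyloid while the mouse form does not. BACE2, an aspartyl protease that beta cells make, cuts membrane proteins at the cell surface and is related to BACE1, the enzyme that starts the release of the amyloid-beta peptide in neurons. Aggregating hIAPP is known for stress of the endoplasmic reticulum, inflammation and beta cell loss, and loss of BACE2 for more insulin output in mice. The comparison asks which transcripts separate islets with the amyloid-forming peptide from islets without the protease.

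The direct comparison called 25 of 12825 genes (0.195%) at an adjusted p under 0.05. Of these, 8 were higher in hIAPP islets (0.0624% of genes tested) and 17 were lower (0.133%). Sema5a, a semaphorin of axon guidance, showed the largest difference, 4.16 on the log2 scale, and the noncoding RNA Snhg18 beside it the next among the genes higher in hIAPP. The genes higher in BACE2-KO islets were led by Tex15, Slc7a3, Fam163a, Star and Timmdc1, with differences between -2.22 and -1.68. Before adjustment, 1457 genes (11.4%) had a p under 0.05, of which 505 (3.94%) were higher and 952 (7.42%) were lower in hIAPP islets. Over all genes tested, 5392 (42%) were higher and 7375 (57.5%) lower in hIAPP islets, with a median difference of -0.03. That median was -0.003 after another quantile normalization, 0.003 after median centring and -0.008 without hIAPP replicate 2. The shares of 42% and 57.5% belong to the deposited scaling and were not counted under the others. All 25 called genes had groups whose arrays did not overlap, which held for 1876 genes tested (14.6%). A difference over 1 in size was found in 17 of the called genes (68%) and in 88 of the genes tested (0.686%). At the threshold, Cd44 (adjusted p = 0.0402), Scpep1 and Frg1 (both 0.0484) stood just inside, and Zcchc12 (0.0523), Ccl28 and Ncoa7 (both 0.0592) just outside.

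**Figure D1:**
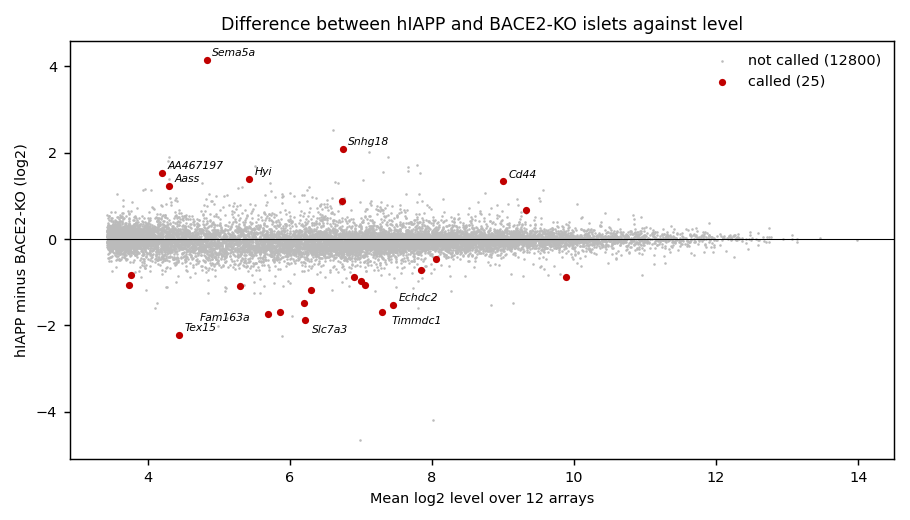
Difference between hIAPP and BACE2-KO islets (log2, vertical axis) against the mean log2 level over 12 arrays (horizontal axis), 1 point per gene tested, with the 25 called genes in red. Sema5a stands at 4.16, far above the other called genes, while most called genes lie below 0; a pair of uncalled genes lies lowest of all.

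The arrays were alike in scale, with medians from 4.22 (hIAPP replicate 2) to 4.35, and no array held the values of another (at most 2.22% equal). hIAPP replicate 1 stood apart on the first principal component, at -28.3 against -16 to 13.8 for the other arrays. The component held 20.4% of the variance. On the second component (16.9%), the hIAPP arrays stood between 8.53 and 17.3 and the BACE2-KO arrays between -13 and -7.15. The WT arrays stood between 5.48 and 9.15 there, and the hIAPP/BACE2-KO arrays between -20.7 and -5.75. This component thus parted all arrays with BACE2 from those without it, and not the compared groups alone. The number of calls depended on single arrays: it was 14, 11 and 29 without hIAPP replicates 1, 2 and 3, and 12, 11 and 27 without BACE2-KO replicates 1, 2 and 3. Of the 25 genes, 11, 11 and 17 were called again without each hIAPP array in turn, and 10, 10 and 18 without each BACE2-KO array. Pdgfrl, Snhg18, Timmdc1, Hyi, Sema5a, Slc7a3 and Tex15 were called in all 12 fits that left out an array. Aass was called in 4 of those fits, Nudt11 in 3, and Rbm45 and Scpep1 in 2 each. A second scaling of the arrays moved the split of calls: 14 higher and 14 lower after median centring, and 10 higher and 13 lower after another quantile normalization. With only the 6 arrays compared in the fit, 11 genes were called, 8 of them among the 25.

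Bace2 did not separate the groups. Its level was 10.89, 11.03 and 11.09 in the hIAPP arrays and 10.85, 11.0 and 10.97 in the BACE2-KO arrays, a difference of 0.06 (SE 0.10, adjusted p = 0.852), and the other Bace2 probe sets differed by -0.12 and 0.08. The groups overlap on this probe set. No source used here places these probes inside or outside the deletion, so this transcript is no check on the genotypes, which were taken from the labels. The insulin gene Ins2 held the highest value of each array, between 13.93 and 14.01 in the 6 arrays, so a difference in it is not resolved. The glucagon gene Gcg differed by 0.01 (SE 0.07), the somatostatin gene Sst by -0.02 (SE 0.16) and the pancreatic polypeptide gene Ppy by 0.03 (SE 0.09), none of them called. These hormone transcripts lie at the top of the scale in all arrays, as islet tissue has them. Iapp and Ins1 were not analysed here.

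Sema5a encodes a transmembrane semaphorin, and Snhg18 hosts a small nucleolar RNA in its introns. The genes lie head to head on chromosome 15, with annotated start sites 151 bases apart, so the promoter windows of the 2 genes share 250 of 300 bases. The window of Sema5a is shown because both transcripts were high in the same arrays. It covers chr15:32244563-32244862 on the plus strand of GRCm38.p6 (RefSeq), with the 150 bases between both start sites in capitals; Snhg18 reads to the left from them and Sema5a to the right.
Sema5a promoter window: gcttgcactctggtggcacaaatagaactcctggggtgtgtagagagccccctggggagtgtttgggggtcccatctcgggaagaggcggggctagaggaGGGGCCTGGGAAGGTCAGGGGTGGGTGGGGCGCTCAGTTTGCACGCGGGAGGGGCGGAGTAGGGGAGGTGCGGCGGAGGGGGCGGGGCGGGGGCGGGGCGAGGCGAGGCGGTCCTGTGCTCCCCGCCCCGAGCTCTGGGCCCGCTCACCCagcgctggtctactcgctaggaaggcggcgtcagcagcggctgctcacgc
This window had a GC content of 71.3% and 23 CG dinucleotides, against medians of 52.7% and 7 over the 32851 windows of the table. The GC box letters GGGCGG (or CCGCCC on the other strand) matched 5 times, and 35.7% of all windows hold at least 1 match. TATAAA (13.6% of windows) and CCAAT (37.4%), searched on both strands, had no match in these letters.

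Sema5a levels were 8.61, 8.49 and 7.47 in the hIAPP arrays and 3.62, 3.69 and 4.79 in the BACE2-KO arrays. No array of either group came near the other group. The difference was 4.16 (SE 0.32, adjusted p = 7.03e-05). The WT and hIAPP/BACE2-KO means were 3.52 and 3.60, so Sema5a was high in the hIAPP arrays alone among the 4 groups, and the islets that carry the transgene without BACE2 did not show it. In the WT and hIAPP/BACE2-KO arrays and in BACE2-KO replicates 1 and 2 the signal was close to the filter level (3.43), so the fold is not resolved; BACE2-KO replicate 3, at 4.79, was above it. Other probe sets of the gene differed by 4.56, 0.99 and -0.09, and the last of these was dim in both groups (means 3.0 and 3.09). Snhg18 was 8.88, 8.51 and 7.72 in the hIAPP arrays against 6.22, 6.09 and 6.52, a difference of 2.09 (SE 0.23, adjusted p = 0.00198). Its means were 6.23 in WT and 6.11 in hIAPP/BACE2-KO islets. In both genes hIAPP replicate 3 was the lowest of its group and BACE2-KO replicate 3 the highest. Of the 6 tested neighbours on each side of Sema5a, Snhg18 was the only one called. Sdc2, a syndecan gene and the nearest tested gene on the other side of Sema5a, differed by -0.52 (adjusted p = 0.263).

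The other 6 called genes higher in hIAPP islets were Hyi, Cd44, Aass, AA467197, Rbm45 and Fmnl2. Hyi, a homologue of hydroxypyruvate isomerase, was 6.11, 6.38 and 6.39 in hIAPP arrays and 5.03, 4.69 and 4.97 in BACE2-KO arrays, a difference of 1.40 (SE 0.14, adjusted p = 0.00116). Its WT mean of 5.75 lay between the groups and its hIAPP/BACE2-KO mean of 4.79 beside BACE2-KO. Cd44, the hyaluronan receptor of many migrating and immune cells, was 9.93, 9.64 and 9.41 against 8.03, 8.23 and 8.71, a difference of 1.34 (SE 0.23, adjusted p = 0.0402). Other Cd44 probe sets differed by 1.43 and 1.27, and a dim one by -0.08. Its call held in 3 of the 12 fits that left out an array. Aass, an enzyme of lysine breakdown, was 5.09, 4.43 and 5.09 against 3.65, 3.61 and 3.67, a difference of 1.23 (SE 0.21, adjusted p = 0.0398). AA467197 was 5.37, 5.28 and 4.49 against 3.48, 3.31 and 3.74, a difference of 1.54 (SE 0.23, adjusted p = 0.019). In the latter 2 genes the BACE2-KO levels lie close to the filter level, so the folds are not resolved. Rbm45, an RNA-binding protein gene, was 7.39, 6.91 and 6.72 against 6.03, 6.12 and 6.23 (difference 0.88, SE 0.15, adjusted p = 0.0398). Its WT mean of 7.60 was above the hIAPP mean of 7.01, so hIAPP islets were not the highest group for it. Fmnl2, a formin that builds actin filaments, was 9.65, 9.68 and 9.51 against 8.74, 8.94 and 9.14 (difference 0.67, SE 0.10, adjusted p = 0.0208).

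**Figure D2:**
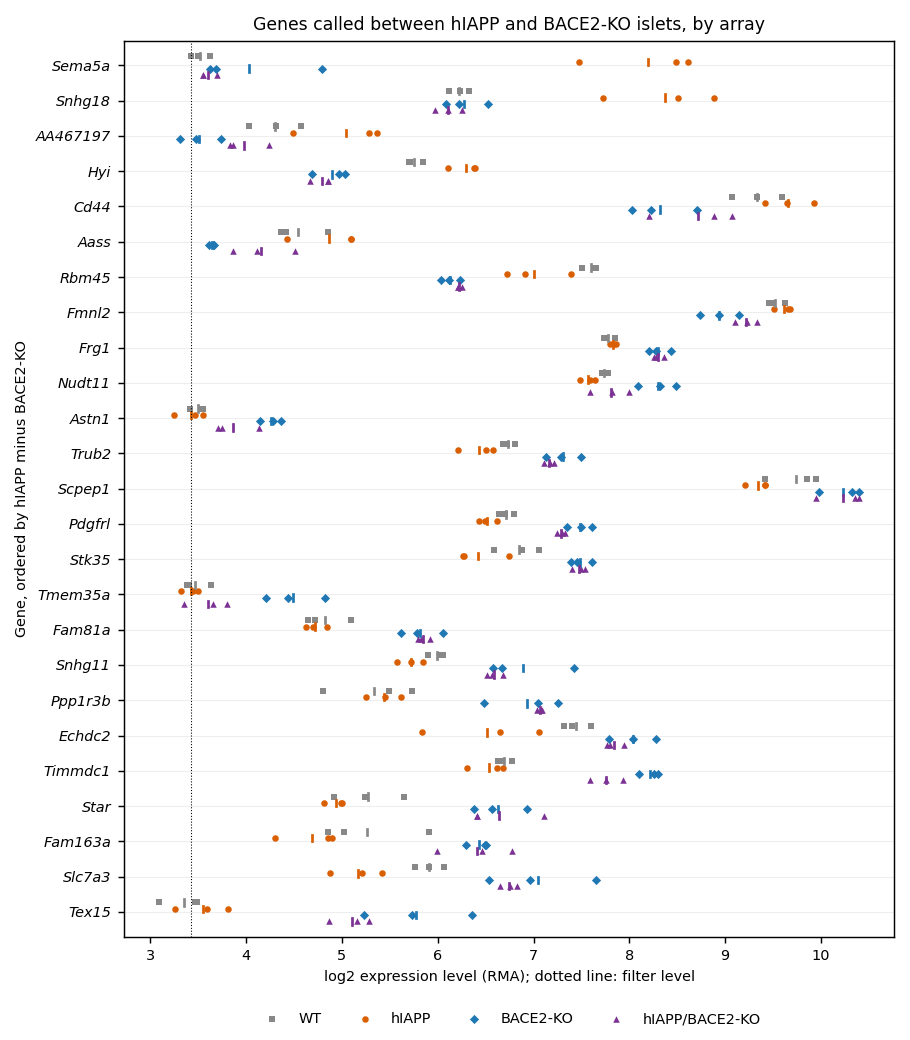
Log2 level of each called gene in all 12 arrays (horizontal axis), genes ordered by the difference between hIAPP and BACE2-KO (vertical axis), with 1 mark per array, a short bar at each group mean and a dotted line at the filter level of 3.43. Sema5a and Snhg18 are high in hIAPP arrays alone, while for Tex15, Star, Ppp1r3b and Fam81a the hIAPP marks lie with WT and the BACE2-KO marks with hIAPP/BACE2-KO.

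Among the 17 genes lower in hIAPP islets, Timmdc1, needed to assemble complex I of the respiratory chain, had the smallest p. It was 6.31, 6.68 and 6.62 in the hIAPP arrays and 8.26, 8.10 and 8.30 in the BACE2-KO arrays, a difference of -1.68 (SE 0.12, adjusted p = 7.03e-05), with 6.69 in WT and 7.76 in hIAPP/BACE2-KO islets. The hIAPP and WT arrays stood together, below both groups without BACE2. Timmdc1 lies on chromosome 16, as Bace2 does, and none of its 6 tested neighbours on each side was called. Of 14 tested complex I assembly factors, 9 were lower and 5 higher, near the 57.5% of all genes that were lower. Timmdc1 was the only one called, where 0.195% of all genes were. Tmem126b, another assembly factor, differed by -0.55 (SE 0.25, adjusted p = 0.428). The 25 subunits of oxidative phosphorylation that were tested had a median difference of 0.05, with 16 higher (42% of all genes) and 8 lower.

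Tex15, a gene of male germ cells needed for meiosis and transposon silencing, was 3.26, 3.81 and 3.59 in hIAPP arrays and 5.73, 5.23 and 6.36 in BACE2-KO arrays. The difference was -2.22 (SE 0.25, adjusted p = 0.00198). The hIAPP levels lie at the bottom of the scale, as those of WT do (mean 3.35), so the fold is not resolved. Star, whose protein moves cholesterol into mitochondria for steroid synthesis, was 5.0, 4.99 and 4.81 against 6.38, 6.93 and 6.57, a difference of -1.69 (SE 0.23, adjusted p = 0.0102). Its call was lost without BACE2-KO replicate 2 (adjusted p = 0.0551). Ppp1r3b, which targets a protein phosphatase to glycogen, was 5.62, 5.25 and 5.45 against 7.05, 6.48 and 7.25, a difference of -1.49 (SE 0.24, adjusted p = 0.0245). Pdgfrl, a relative of the platelet-derived growth factor receptors, was 6.49, 6.43 and 6.62 against 7.35, 7.61 and 7.50, a difference of -0.97 (SE 0.11, adjusted p = 0.00195). Frg1, a gene of RNA processing, was 7.84, 7.86 and 7.80 against 8.28, 8.20 and 8.43, a small difference of -0.47 (SE 0.08, adjusted p = 0.0484). Its call held in 1 of the 12 fits that left out an array.

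These last 5 genes share chromosome 8, where 5 of 686 genes tested were called (0.729%, against 0.195% of all genes), all lower in hIAPP islets. Across the stretch they span, 59 genes were tested, of which 40 were lower (57.5% of all genes) and the median difference was -0.12. In that stretch 12 genes had an unadjusted p under 0.05 and were lower (7.42% of all genes), and 4 were higher (3.94% of all genes). The called genes themselves set this stretch, so its counts are a description. Chromosome 2 held 7 calls among 1029 genes (0.68%; 0.195% of all genes), 4 higher and 3 lower, and chromosome X held 3 among 393 (0.763%), all lower: Slc7a3, Tmem35a and Nudt11. The labels do not give the 129P2 share of any mouse, so neither change can be told apart from sequence bred along with it. The direct comparison alone does not part BACE2 loss from the transgene. For Tex15, Star, Ppp1r3b, Pdgfrl and Frg1, BACE2-KO minus WT was 2.42, 1.36, 1.59, 0.77 and 0.52. In the same order, hIAPP minus WT was 0.20, -0.34, 0.10, -0.20 and 0.05. The cause was not tested.

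Slc7a3, a transporter of cationic amino acids such as arginine and lysine, was 5.21, 4.88 and 5.42 in hIAPP arrays and 6.53, 7.65 and 6.96 in BACE2-KO arrays, a difference of -1.88 (SE 0.23, adjusted p = 0.0054). The WT mean, 5.91, lay between them, and the hIAPP/BACE2-KO mean was 6.74. Fam163a was 4.30, 4.86 and 4.90 against 6.50, 6.49 and 6.29, a difference of -1.74 (SE 0.28, adjusted p = 0.0245). Echdc2, a gene of the enoyl-CoA hydratase family, was 7.06, 5.84 and 6.65 against 8.28, 8.04 and 7.79, a difference of -1.52 (SE 0.24, adjusted p = 0.024). hIAPP replicate 2 was the lowest array for it. Snhg11, a noncoding RNA known from neurons, was 5.58, 5.85 and 5.72 against 7.42, 6.58 and 6.67, and Fam81a was 4.84, 4.63 and 4.70 against 5.62, 5.78 and 6.05. Their differences were -1.17 (adjusted p = 0.0259) and -1.09 (adjusted p = 0.015).

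The remaining called genes were lower by between -1.07 and -0.73. Tmem35a, which encodes a chaperone of nicotinic acetylcholine receptors, was 3.32, 3.45 and 3.50 in hIAPP arrays against 4.44, 4.21 and 4.82. Astn1, an astrotactin gene of neuronal migration, was 3.55, 3.47 and 3.25 against 4.14, 4.36 and 4.28. Both were near the filter level in hIAPP and WT islets, so a signal above it was seen in BACE2-KO islets, with hIAPP/BACE2-KO means of 3.60 and 3.86. The kinase gene Stk35 differed by -1.06 (adjusted p = 0.015), and its other probe set by -0.51. Scpep1, a serine carboxypeptidase gene, differed by -0.89 (adjusted p = 0.0484). Trub2, a pseudouridine synthase gene, differed by -0.87 (adjusted p = 0.015), and its other probe sets by -0.79 and -1.04. Nudt11, a hydrolase of inositol pyrophosphates, differed by -0.73 (adjusted p = 0.0326). Nudt11 and Frg1 fall outside the 15 largest differences that the naming rule takes, and were named after their values were seen to complete the called genes. Of the 25 called genes, 19 had 1 probe set, and of the 6 with several, all probe sets had 1 sign in 4; Sema5a and Cd44 were the exceptions.

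The 6 other arrays give a second view of the same genes, since hIAPP/BACE2-KO minus WT shares no array with the comparison, although all 12 arrays set the spread of the fit. That contrast called 17 genes (0.133%), and 1081 (8.43%) had an unadjusted p under 0.05. Of the 25 genes called between hIAPP and BACE2-KO, 24 had the opposite sign there (96%), against 50.7% of all genes tested. Unadjusted p was under 0.05 for 18 (72%). The 8 called in both contrasts (32%) were Timmdc1, Hyi, Tex15, Star, Fam81a, Ppp1r3b, Rbm45 and Frg1. Tex15 differed by 1.75 between hIAPP/BACE2-KO and WT, Ppp1r3b by 1.73 and Timmdc1 by 1.07, while Hyi differed by -0.96 and Rbm45 by -1.37. Sema5a (0.08) was the exception in sign, and Snhg18 differed by -0.12. The calls in that contrast numbered 6, 6 and 10 without WT replicates 1, 2 and 3, 11 without BACE2-KO replicate 3, and 3, 0 and 4 when the first, the second or the third hIAPP/BACE2-KO array was left out. At 0 calls limma still gave 864 genes with an unadjusted p under 0.05, 17 of the 25 among them. In a fit of those 6 arrays alone, 19 of the 25 (76%) had an unadjusted p under 0.05, against 8.97% of all genes, and 3 of the 25 were among the 4 genes called.

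The group means tell the same arrangement gene by gene. The WT mean was nearer the hIAPP mean than the BACE2-KO mean in 22 of the 25 genes (88%; 47.7% of all genes), and the hIAPP/BACE2-KO mean was nearer BACE2-KO in 23 (92%; 52.8% of all). WT lay between both groups in 19 (76%), a share that was not counted over all genes. These shares use the arrays that chose the genes together with the others, so they are a description. Over all 12825 genes, the differences of both contrasts had a Pearson r of -0.165 and a Spearman rho of -0.0713, across genes that are not independent.

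**Figure D3:**
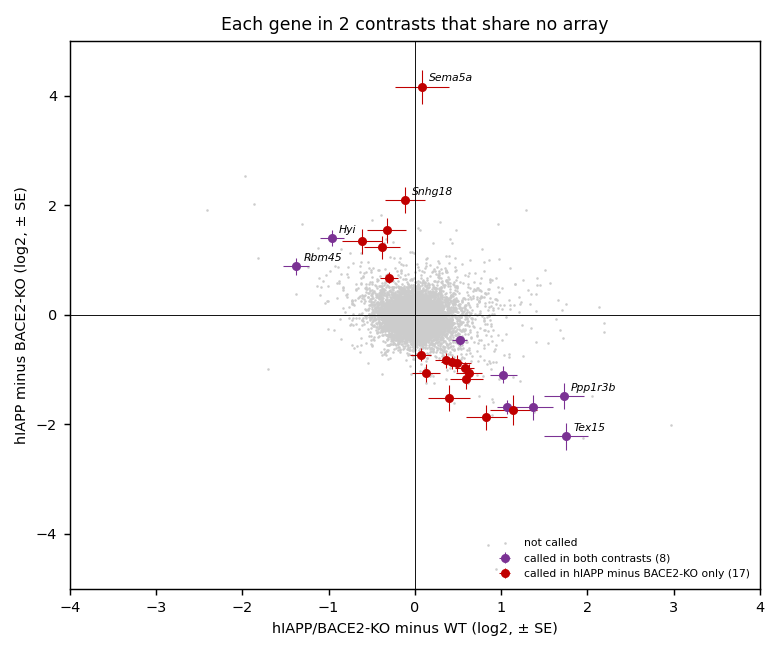
Difference between hIAPP and BACE2-KO islets (vertical axis) against the difference between hIAPP/BACE2-KO and WT islets (horizontal axis), both in log2 units, 1 point per gene, with standard errors on the called genes. Purple marks the 8 genes called in both contrasts and red the 17 called in the first only; 24 of the 25 lie in the quadrants of opposite sign, and Sema5a stands near 0 on the horizontal axis.

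Gene lists were described by counts and medians, beside the median of -0.03 over all genes. Beta cell genes of glucose sensing and secretion were lower in hIAPP islets in 11 of 15 cases, with a median of -0.20, 6 with an unadjusted p under 0.05 and none called; of all genes, 57.5% were lower and 7.42% were lower with such a p. In whole islets, fewer cells of a type and less RNA per cell cannot be told apart. Trpm5, a cation channel of beta cells, was 8.39, 8.91 and 9.17 in the hIAPP arrays against 9.55, 9.69 and 9.78, a difference of -0.85 (SE 0.17, adjusted p = 0.0744). The granule protein gene Sytl4 differed by -0.59 (adjusted p = 0.0892), the glucose transporter gene Slc2a2 by -0.56 (adjusted p = 0.362) and the zinc transporter gene Slc30a8 by -0.31 (adjusted p = 0.376). In each of these 4 genes hIAPP replicate 1 was the lowest of the 6 arrays. The list's mean level was 9.24, 9.57 and 9.82 in the hIAPP arrays and 9.70, 9.83 and 9.85 in the BACE2-KO arrays, which overlap, and the median was -0.10 without hIAPP replicate 1 and -0.40 without hIAPP replicate 3. Beta cell transcription factors had a median of -0.05 with 9 of 14 lower, near the share of all genes: Nkx6-1 differed by -0.43 (adjusted p = 0.384), Isl1 by 0.34 (adjusted p = 0.396) and Esrrg by 0.43 (adjusted p = 0.276). Genes of the secretory granule and prohormone processing had a median of -0.10, with 13 of 20 lower, also near that share, and Pcsk1, a prohormone convertase, differed by -0.30 (adjusted p = 0.385).

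Among markers of the other endocrine cells no gene was called, and Ghrl and Pnoc had the smallest p. Ghrl, the ghrelin gene of epsilon cells, was 5.23, 4.43 and 5.43 in the hIAPP arrays and 3.14, 3.09 and 3.14 in the BACE2-KO arrays, a difference of 1.91 (SE 0.37, adjusted p = 0.0681) that was not called. All BACE2-KO arrays lay under the filter level, as did the hIAPP/BACE2-KO mean of 3.31, while the WT mean was 5.72. Pnoc, which encodes the precursor of nociceptin, was 4.74, 4.92 and 4.44 against 3.78, 3.92 and 3.77 (difference 0.88, SE 0.16, adjusted p = 0.0625). Of 11 delta, PP and epsilon cell markers, 5 were higher and 6 lower, near the shares of all genes (42% and 57.5%). An unadjusted p under 0.05 was found in 3 of the higher ones (3.94% of all genes). Of 12 alpha cell markers, 7 were lower, near the share of all genes, and the median was -0.23. Among the lower ones, 3 had an unadjusted p under 0.05 (7.42% of all genes). The transcription factor gene Etv1 differed by -0.57 (adjusted p = 0.115).

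In the PERK-ATF4 branch of the unfolded protein response, a kinase of the endoplasmic reticulum raises translation of the transcription factor ATF4. ATF4 in turn raises genes of amino acid supply. The arrays measure transcripts, so the activity of the kinase and of ATF4 was not tested. Of 31 genes listed under this branch, 26 were lower in hIAPP than in BACE2-KO islets, where 57.5% of all genes tested were lower. The median was -0.25, 9 genes had an unadjusted p under 0.05, all lower (7.42% of all genes), and 1, Slc7a3, was called. The list's mean level was 7.96, 8.22 and 8.27 in the hIAPP arrays and 8.36, 8.57 and 8.58 in the BACE2-KO arrays, without overlap, and the median was -0.14 without hIAPP replicate 1. Group arrays did not overlap in 12 of the 31 genes, and in 14.6% of all genes. Cth, an enzyme of cysteine synthesis, was 4.55, 3.86 and 4.34 against 4.99, 6.15 and 5.34 (difference -1.24, SE 0.27, adjusted p = 0.0982). Chac1, which degrades glutathione, was 9.42, 9.97 and 10.10 against 10.34, 10.31 and 10.69 (difference -0.62, SE 0.20, adjusted p = 0.281). Vldlr, a lipoprotein receptor gene, was 8.12, 8.32 and 8.14 against 8.46, 8.49 and 8.57 (difference -0.31, SE 0.10, adjusted p = 0.279). Pck2, a mitochondrial enzyme of gluconeogenesis named after its values were seen, was 8.65, 9.46 and 9.53 against 9.54, 9.96 and 10.03 (difference -0.63, SE 0.22, adjusted p = 0.305). The means of this list in WT arrays were 7.88, 8.18 and 8.27, and in hIAPP/BACE2-KO arrays 8.24, 8.60 and 8.57.

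ATF4 binds DNA together with C/EBP proteins at sites that hold the letters TGATGNAA, or TTNCATCA on the other strand. These letters were searched on both strands of the promoter windows, where 4.51% of all genes have a match. Of the 31 genes of the list, 27 had a window and 10 of those (37%) held a match, as did 4 of the 6 with a window and an unadjusted p under 0.05. Slc7a3 had no window in the table. The stretches around the match (capitals) are shown for 3 of these genes, so that the shared letters can be seen, with positions chr2:119351023-119351082 (Chac1), chr14:55540137-55540196 (Pck2) and chr19:27216794-27216853 (Vldlr), all on the plus strand of GRCm38.p6 (RefSeq). A match is a description of these letters and not a measured site. The list was drawn up as genes of the ATF4 branch, so its higher share says nothing about the difference between the groups. Its genes with a window also held the GC box letters more often (66.7%, against 38.2% of all genes), and CCAAT (63%, against 41.1%).
Chac1: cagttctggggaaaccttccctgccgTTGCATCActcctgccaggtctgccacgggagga
Pck2: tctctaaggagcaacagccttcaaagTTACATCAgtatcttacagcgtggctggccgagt
Vldlr: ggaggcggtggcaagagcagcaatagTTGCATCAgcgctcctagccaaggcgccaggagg

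Other lists of the stress response and amino acid supply are set here beside the 57.5% of all genes that were lower and the 7.42% that were lower with an unadjusted p under 0.05. Of 21 amino acid transporters, 15 were lower, 7 with an unadjusted p under 0.05, and 1 was called, Slc7a3. The PERK-ATF4 list also holds Slc7a3, Slc7a1, Slc7a5, Slc7a11 and Slc3a2, so the transporter list is not independent of it. Slc7a8, a transporter of large neutral amino acids, was 6.72, 7.65 and 7.63 in the hIAPP arrays against 8.41, 8.43 and 8.10 (difference -0.98, SE 0.23, adjusted p = 0.137), and Slc7a6 differed by -0.45 (adjusted p = 0.15). Of 17 heat shock proteins and cytosolic chaperones, 15 were lower, with a median of -0.13 and none called; the small heat shock protein gene Hspb8 differed by -0.63 (adjusted p = 0.218) and Hspa8 by -0.18 (adjusted p = 0.376). The ATF6 and IRE1-XBP1 arms, which raise chaperones of the endoplasmic reticulum, had 21 of 29 genes lower and a median of -0.10. Within them the disulfide isomerase gene Pdia3 differed by 0.60 (adjusted p = 0.234) and the chaperone gene Dnajb9 by -0.24 (adjusted p = 0.357). The Pdia3 probe set was dim for this list, with means of 5.67 in hIAPP and 5.07 in BACE2-KO islets. The list's means in these arrays lay between 9.82 and 10.29. Antioxidant and NRF2 target genes had 15 of 24 lower, near the share of all genes, and a median of -0.10. Srxn1, which repairs oxidised peroxiredoxins, was 8.51, 8.59 and 8.72 against 9.14, 9.11 and 8.83 (difference -0.42, adjusted p = 0.135), and the malic enzyme gene Me1 differed by -0.32 (adjusted p = 0.135). The cell cycle inhibitor gene Cdkn1a, a target of p53, differed by -0.51 (adjusted p = 0.282).

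**Figure D4:**
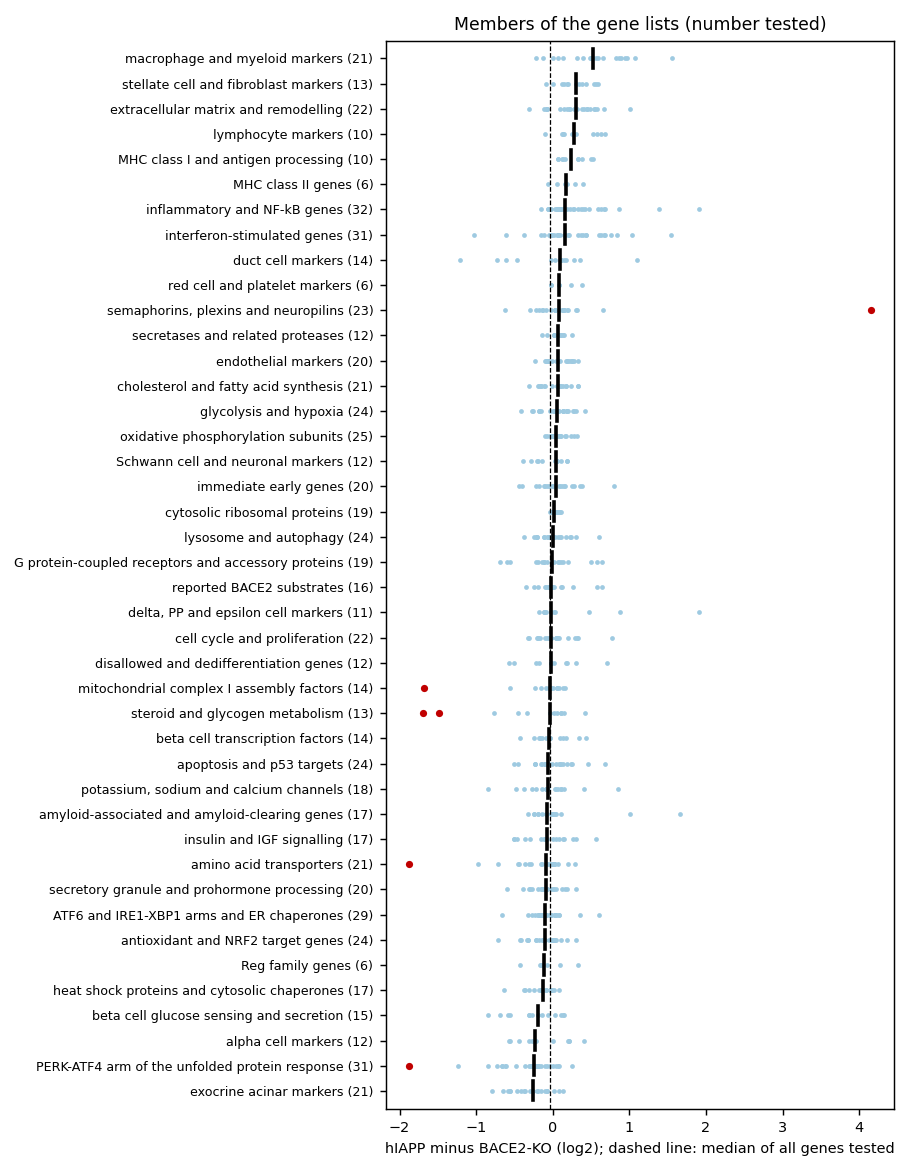
Difference between hIAPP and BACE2-KO islets (log2, horizontal axis) for each tested member of the gene lists with at least 5 tested members (vertical axis, number tested in parentheses); a black bar marks the list median, red a called gene and the dashed line the median of all genes, -0.03. A list of strain-variable transcripts is left out, since it was drawn up with some of these calls known. The lists shown were also chosen with earlier results of these data known. Macrophage markers have the highest median (0.52), and the PERK-ATF4 and acinar lists the lowest (-0.25 and -0.26).

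Macrophage and myeloid markers were higher in hIAPP islets in 19 of 21 genes, with a median of 0.52, 7 with an unadjusted p under 0.05 and none called; of all genes, 42% were higher and 3.94% were higher with such a p. Their mean level was 6.51, 6.08 and 6.44 in the hIAPP arrays and 5.51, 5.93 and 5.94 in the BACE2-KO arrays, without overlap. It was 5.56 to 5.95 in the WT arrays, which overlap the BACE2-KO arrays but lie below every hIAPP array. In the hIAPP/BACE2-KO arrays it was 5.52 to 6.61, which overlaps both the hIAPP and the BACE2-KO arrays. The hIAPP and BACE2-KO arrays did not overlap in 9 of the 21 genes, against 14.6% of all genes. Lyz2, the lysozyme of macrophages, was 8.76, 8.25 and 8.47 against 6.54, 7.10 and 7.18 (difference 1.55, SE 0.33, adjusted p = 0.0998). The lysosomal protease gene Ctss was 9.54, 9.20 and 9.30 against 7.88, 8.46 and 8.50 (difference 1.07, SE 0.28, adjusted p = 0.177). The complement gene C1qa differed by 0.50 (adjusted p = 0.231) and Mpeg1, a pore-forming protein of macrophages, by 0.87 (adjusted p = 0.294). The receptor genes Adgre1 and Csf1r, which define the cell type and were picked out after their values were seen, differed by -0.21 and -0.13. The list's median lay between 0.41 and 0.61 with any 1 of the 6 arrays left out. With the list's mean as a covariate, an alternative chosen after seeing the data, 8 genes were called in place of 25, all among them: Sema5a, Snhg18, Timmdc1, Hyi, Pdgfrl, Tex15, Slc7a3 and Star. This mean does not overlap between the hIAPP and BACE2-KO arrays, so the covariate takes up part of the difference compared. The fall in calls therefore cannot show its cause.

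Lists of other non-endocrine cells held no called gene and differed in direction. Stellate cell and fibroblast markers were higher in 11 of 13 genes (42% of all genes; median 0.31; -0.15 with the macrophage mean as a covariate), and genes of the extracellular matrix in 17 of 22 (median 0.30; 0.09 without BACE2-KO replicate 2). Pdgfrb, a receptor of stellate cells and pericytes, differed by 0.35 (adjusted p = 0.433) and the protease gene Adamts1 by 0.67 (adjusted p = 0.347). Lymphocyte markers were higher in 9 of 10 (median 0.27), with array means of 4.73, 4.35 and 5.32 against 4.44, 4.73 and 4.26, which overlap. Endothelial markers were higher in 12 of 20 (median 0.07), and Schwann cell and neuronal markers in 7 of 12 (median 0.04); without BACE2-KO replicate 2 these medians were -0.07 and -0.10. Acinar cell markers, from exocrine tissue that clings to isolated islets, were lower in 18 of 21 (median -0.26), none with an unadjusted p under 0.05. Their array means were 10.09, 9.19 and 9.97 in the hIAPP arrays and 10.71, 10.20 and 9.23 in the BACE2-KO arrays, and the median turned to 0.03 without hIAPP replicate 2, lay at -0.002 without BACE2-KO replicate 1 and reached -0.71 without BACE2-KO replicate 3. With the acinar mean as a covariate, 34 genes were called, 24 of the 25 among them. Duct markers were mixed: Krt19, a duct keratin, differed by -1.21 (SE 0.59, adjusted p = 0.471) and Dcdc2a by 1.10 (SE 0.30, adjusted p = 0.204).

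Inflammatory, interferon-stimulated and MHC class I genes were higher in hIAPP than in BACE2-KO islets more often than lower, none called, against 42% of all genes that were higher. In these 3 lists hIAPP replicate 1 held the highest mean of the 6 arrays. Of 32 inflammatory and NF-kB genes, 27 were higher, with a median of 0.17, or -0.02 without hIAPP replicate 1. The list's mean was 6.87 in that array, against 5.63 and 5.62 in hIAPP replicates 2 and 3 and 5.91, 5.59 and 5.66 in the BACE2-KO arrays. Il6, a cytokine gene, was 9.74, 7.56 and 6.71 against 6.88, 4.90 and 6.51 (difference 1.91, SE 0.74, adjusted p = 0.353), and Cxcl5, a neutrophil chemokine gene, 6.99, 4.47 and 3.73 against 3.95, 3.70 and 3.39 (difference 1.38, SE 0.62, adjusted p = 0.428). The groups overlap in both genes. All 10 genes of MHC class I and antigen processing were higher (median 0.24; 0.08 without hIAPP replicate 1), and the immunoproteasome gene Psmb8 differed by 0.53 (adjusted p = 0.333). Of 6 MHC class II genes, 5 were higher (median 0.18); here hIAPP replicate 3 held the highest mean (6.83, against 5.92 and 5.90 in hIAPP replicates 1 and 2), and the median was -0.11 without it. Of 31 interferon-stimulated genes, 22 were higher (median 0.16; 0.02 without hIAPP replicate 1 and -0.02 without BACE2-KO replicate 2). Oas2, an antiviral enzyme gene, was 6.26, 6.11 and 6.03 against 5.43, 4.46 and 5.41 (difference 1.03, SE 0.26, adjusted p = 0.167). Xaf1 differed by 1.54 (adjusted p = 0.182) on its brightest probe set, but by -0.95 in the mean of its probe sets. Mx1, an antiviral GTPase gene and the nearest tested gene after Bace2 on chromosome 16, differed by -0.61 (adjusted p = 0.294). None of the 6 tested neighbours on each side of Bace2 was called. Tmprss2 (0.89, adjusted p = 0.113), Sh3bgr (-0.63) and Prdm15 (-0.40), picked out after their values were seen, had an unadjusted p under 0.05, as Mx1 had.

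**Figure D5:**
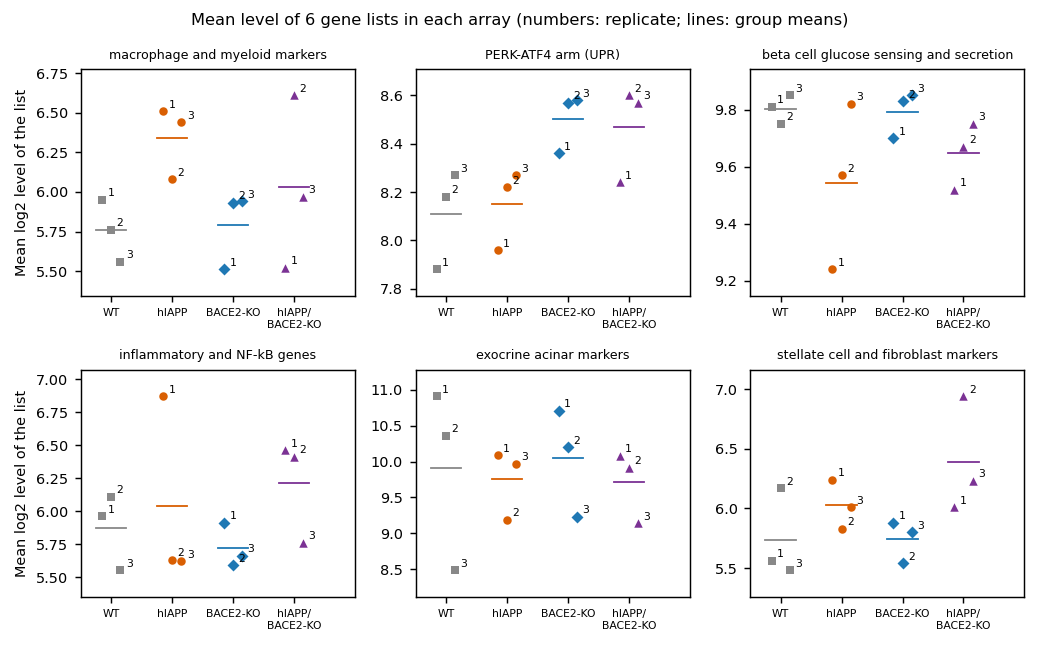
Mean log2 level of the tested members of 6 gene lists (vertical axes) in each array of the 4 groups (horizontal axes), with the replicate number beside each mark and a line at the group mean; the vertical scales differ and do not start at 0. The hIAPP arrays lie above the BACE2-KO arrays for macrophage markers and below them for the PERK-ATF4 list, and hIAPP replicate 1 stands alone at 6.87 for inflammatory genes.

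Lists of amyloid-associated genes, BACE2 substrates and secretases held no called gene. Among 17 amyloid-associated and amyloid-clearing genes, 6 were higher and 11 lower (median -0.08), where 42% and 57.5% of all genes were. Apoe, an apolipoprotein found in amyloid deposits and made by macrophages among other cells, was 9.33, 8.73 and 8.53 in the hIAPP arrays against 6.29, 7.70 and 7.62 (difference 1.66, SE 0.41, adjusted p = 0.15). The group means were 6.82 in WT and 7.79 in hIAPP/BACE2-KO islets. Ttr, the transthyretin gene, differed by -0.24 (adjusted p = 0.304) and the amyloid precursor gene App by -0.25 (adjusted p = 0.353). Reported substrates of BACE2 had 7 of 16 higher and 9 lower (median -0.02, but 0.02 after median centring): the seizure-related gene Sez6l was 9.08, 9.0 and 8.92 against 8.89, 7.99 and 8.20 (difference 0.64, SE 0.18, adjusted p = 0.224). Of 12 secretases and related proteases, 10 were higher (42% of all genes), with a median of 0.07 and none with an unadjusted p under 0.05. Among 23 semaphorins, plexins and neuropilins, Sema5a was the only one called (0.195% of all genes) and the median was 0.08. Sema4a was 7.50, 7.23 and 7.11 against 6.59, 6.52 and 6.76 (difference 0.66, SE 0.13, adjusted p = 0.0752), and the receptor gene Plxna3 differed by -0.63 (adjusted p = 0.295).

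Metabolic lists showed few differences beyond called genes already described. Of 13 genes of steroid and glycogen metabolism, Star and Ppp1r3b were called, where 0.195% of all genes were. This list was chosen with earlier results of these data known, so its calls are a description. The glycogen phosphorylase gene Pygb was 6.02, 6.05 and 6.39 against 7.09, 6.85 and 6.83 (difference -0.77, SE 0.16, adjusted p = 0.0892). The lysosomal protease gene Ctsz was 10.84, 10.77 and 10.58 against 9.94, 10.08 and 10.37 (difference 0.60, SE 0.12, adjusted p = 0.0892), while the 24 lysosome and autophagy genes were split evenly, 12 and 12. Mcm6, a subunit of the replicative helicase, was 7.45, 7.18 and 7.69 against 6.37, 6.84 and 6.78 (difference 0.78, SE 0.15, adjusted p = 0.0656), and the 22 cell cycle genes had a median of -0.03 (0.01 after median centring). The early response gene Junb was 7.95, 8.15 and 7.85 against 7.32, 6.98 and 7.25 (difference 0.80, SE 0.18, adjusted p = 0.119). Cytosolic ribosomal proteins had the narrowest range, from -0.04 to 0.11 over 19 genes.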

How the data were processed

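Total RNA of isolated islets was measured on Affymetrix mouse arrays, with 3 arrays in each of 4 groups. The authors deposited log2 expression values for 45141 probe sets, and the submitters' processing notes name RMA and affy, without versions. Probe sets were named from the platform annotation: 28898 had 1 symbol, 551 several and 15692 were not listed. The probe set with the highest mean stood for each gene. limma 3.58.1 (R 4.3.3) fitted a mean per group to all 12 arrays, with eBayes and a variance trend, and calls were made at a p under 0.05 (two-sided, adjusted by Benjamini-Hochberg over 12825 genes). The steps were tested on simulated data. Differences are hIAPP minus BACE2-KO in log2 units, with standard errors (SE). An exact permutation test of 3 arrays against 3 cannot go below p = 0.1. The genes named were fixed by a rule: Bace2, the islet hormones, up to 15 called genes in each direction and up to 4 members of each list with the smallest p. The called genes Nudt11 and Frg1 lie outside it and were named after their values were seen. The members and lists were chosen with earlier results of these data known. Alternatives were the filter, the probe set rule, the scaling, the variance model, weights, covariates, the replicate block and each array left out. The arrays hold no read depth, and their number limits the precision. Figures were drawn with matplotlib.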

Additional observations from a re-analysis of the deposited data

How the results depend on the processing

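The count of calls (25; 8 higher, 17 lower; 17 for hIAPP/BACE2-KO minus WT) depended on the setting. A filter at the median of all genes gave 16 calls, 4 of them higher, and 7 for hIAPP/BACE2-KO minus WT. Higher calls numbered 13 with the mean over probe sets, 14 after median centring and 14 with the acinar covariate. For hIAPP/BACE2-KO minus WT, no variance trend gave 11 and array weights 34. Only the 6 arrays compared gave 11 (5 higher, 6 lower). The macrophage covariate, chosen after seeing the data, gave 8 (3 higher, 5 lower) and 2. A threshold of 0.1 gave 64 (28 higher, 36 lower). The replicate block gave 42 (13 higher, 29 lower) and 27. Same-numbered hIAPP and BACE2-KO arrays deviated from their group means with correlations of 0.199, 0.000546 and -0.0929. The labels do not say what a shared number marks, and these correlations cannot decide whether such arrays share a batch. Leaving out 1 array gave 11 to 33 calls (3 to 13 higher, 7 to 21 lower) and 0 to 18 for hIAPP/BACE2-KO minus WT; at 0 calls, limma gave 864 genes with an unadjusted p under 0.05. Of the 25 genes, Pdgfrl, Snhg18, Timmdc1, Hyi, Sema5a and Tex15 were called in every alternative in which they were tested. Values that turned in sign were not called in any setting: Xaf1 (-0.95) and Sema6d (-0.01) with the mean over probe sets; Ins2 after quantile normalization (0) and median centring (0.017); Sst after median centring (0.017) and with weights (0.019); Gcg with the acinar (-0.001) and macrophage (-0.033) covariates; and Bace2 with the macrophage covariate (-0.042). With 1 array left out, Sst ran from -0.252 to 0.113, Gcg ran from -0.015 to 0.045, Ppy ran from -0.013 to 0.067. The cause was not tested. Signals near the filter level of 3.43 do not resolve folds.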

Other observations

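The largest differences in size that were not called were in the trypsinogen genes Prss3 and Prss1 on chromosome 6, chosen here after their values were seen. Prss3 was 5.44, 3.87 and 4.93 in the hIAPP arrays and 11.59, 6.14 and 10.46 in the BACE2-KO arrays, a difference of -4.65 (SE 1.28, adjusted p = 0.197). Prss1 was 6.70, 5.37 and 6.09 against 12.24, 7.15 and 11.36, a difference of -4.20 (SE 1.18, adjusted p = 0.216). The WT arrays ranged from 4.08 to 8.93 for Prss3 and from 5.49 to 9.77 for Prss1. The trypsinogens are acinar products with near-identical copies, which these probes may share, and the acinar list itself had a median of -0.26 and overlapping groups.

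Rpgrip1 and Tmem179 were also picked out after their values were seen. Rpgrip1, a gene of photoreceptor cilia, was 8.19, 8.08 and 8.10 in the hIAPP arrays and 7.96, 8.08 and 8.11 in WT. It was 5.46, 5.51 and 7.35 in BACE2-KO and 5.53, 7.16 and 5.87 in hIAPP/BACE2-KO arrays, where 1 array of each group stood above the others. The difference between hIAPP and BACE2-KO was 2.02 (SE 0.46, adjusted p = 0.115). Tmem179 was 3.90, 5.26 and 5.13 in the hIAPP arrays and 7.95, 6.26 and 6.81 in the BACE2-KO arrays, a difference of -2.24 (SE 0.45, adjusted p = 0.0792), with means of 4.91 in WT and 6.86 in hIAPP/BACE2-KO islets.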
